A study of Homo sapiens with 4 samples.

Results

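The collagens of the epithelial side of the skin were followed in HaCaT, an immortalised human keratinocyte line, after 72 h with an inflammatory cytokine mix. The group held 9 genes chosen by name: the hemidesmosome collagen COL17A1, the anchoring fibril collagen COL7A1, the type IV chains COL4A1, COL4A2, COL4A5 and COL4A6, and COL5A1, COL12A1 and COL18A1. Of these, 8 had a row in the tables, out of 27356 genes in all, and COL18A1, whose product carries the endostatin fragment, had no row, so no level of it is given and it enters only the promoter search. The treated group was M5 (2 libraries), a mix of 5 cytokines (interleukins 1α, 17 and 22, TNF-α and oncostatin M) at 10 μg/L each. The control group was phosphate-buffered saline, PBS (2 libraries). Cells of both groups were plated to a density of 50% before treatment. One tag of the M5 libraries disagrees with the rest of their labels: it gives a treatment with 25 μM of DAC, an abbreviation it does not expand. Titles, protocols and design text all give M5, and the grouping here rests on the titles. Nothing in the labels says that the 2 libraries of a group are separate cultures. The p-values therefore weigh the groups against a library-to-library spread that may be only technical.

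Basal keratinocytes sit on a basement membrane. Type XVII collagen spans their plasma membrane inside hemidesmosomes, where it meets integrin ITGA6/ITGB4 and laminin. Type IV collagen forms the network of the membrane itself, with COL4A1 and COL4A2 chains in one heterotrimer and COL4A5 and COL4A6 chains in another. Type VII collagen makes the anchoring fibrils that tie the membrane to the dermis. Types V and XII belong to collagen fibrils, the first as a fibril-forming chain that limits fibril width and the second as a fibril-associated collagen.

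Libraries held between 15858644 and 19749612 counts. The 14 keratinocyte markers examined were all detected, with a summed level between 5750 and 6010 FPKM (the deposited level of a gene, scaled for its length and the library total) in the M5 libraries and between 4250 and 4290 FPKM in the PBS libraries. Fibroblast markers summed to between 5.81 and 6.18 FPKM in M5 and between 0.630 and 0.704 FPKM in PBS. Nearly all of that difference was FAP, a surface protease, with 676 and 788 counts in M5 and 5 and 12 in PBS. Of the other fibroblast markers, COL1A2 and COL3A1 had no row, DCN, LUM, PDGFRA, PDGFRB, THY1 and POSTN had at most 5 counts in any library, and COL1A1 had 110 and 68 counts in M5 and 70 and 83 in PBS. Endothelial markers, led by CDH5, summed to at most 0.786 FPKM and melanocyte markers, led by PMEL, to at most 0.778 FPKM in any library. Leukocyte markers summed to 4.72 and 5.22 FPKM in M5 and to between 1.64 and 2.41 FPKM in PBS, almost all of it CD14, with no row for PTPRC. The part of these genes in the collagen results was not tested.

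The promoters of the members the results turn on are shown here because COL17A1 and COL7A1 moved in opposite directions, and because the type IV genes are arranged head to head in pairs. Per RefSeq (GRCh38.p14), the starts of COL4A1 and COL4A2 lie 127 bp apart on opposite strands. The start of COL4A5 lies 380 bp from the nearer of the COL4A6 starts and 1416 bp from the other. Capitals mark matches, on either strand, to 6 motifs: AP-1 (TGANTCA), the NF-kB consensus, STAT (TTCNNNGAA), the GC box (GGGCGG), the SMAD element (CAGAC) and the TATA box (TATAAA). The first pair are the 250 bases before the start of COL17A1 (chr10:104085881-104086130, minus strand) and of COL7A1 (chr3:48595330-48595579, minus strand). The third is the stretch between the COL4A1 and COL4A2 starts (chr13:110307158-110307283, plus strand), and the last the 250 bases before COL4A5 (chrX:108439588-108439837, plus strand), which run towards COL4A6.
COL17A1: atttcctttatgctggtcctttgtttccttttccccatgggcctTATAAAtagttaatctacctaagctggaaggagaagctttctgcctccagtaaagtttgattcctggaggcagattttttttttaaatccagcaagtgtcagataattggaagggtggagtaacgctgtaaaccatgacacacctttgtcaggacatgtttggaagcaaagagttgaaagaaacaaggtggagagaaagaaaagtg
COL7A1: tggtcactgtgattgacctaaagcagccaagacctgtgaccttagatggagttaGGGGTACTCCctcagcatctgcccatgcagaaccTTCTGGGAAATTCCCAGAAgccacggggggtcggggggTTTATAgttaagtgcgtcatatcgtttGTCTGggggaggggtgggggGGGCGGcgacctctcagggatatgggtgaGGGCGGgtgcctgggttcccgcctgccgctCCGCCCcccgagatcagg
COL4A1 and COL4A2: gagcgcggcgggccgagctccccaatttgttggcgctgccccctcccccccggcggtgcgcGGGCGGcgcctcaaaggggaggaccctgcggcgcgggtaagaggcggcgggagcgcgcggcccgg
COL4A5 and COL4A6: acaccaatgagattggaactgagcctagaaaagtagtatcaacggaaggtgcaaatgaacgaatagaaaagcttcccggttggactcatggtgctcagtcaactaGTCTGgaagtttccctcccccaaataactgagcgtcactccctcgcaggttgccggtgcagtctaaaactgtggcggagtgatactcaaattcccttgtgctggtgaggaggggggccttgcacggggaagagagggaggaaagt

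The COL17A1 stretch held 1 TATA box match, at -206 from the start, and no match to the other motifs. The COL7A1 stretch held 3 NF-kB matches, of which 2 overlap each other and the 2 STAT matches. It also held 3 GC boxes, 1 SMAD element and 1 TATA box match, at -124 on the strand opposite to the gene. The stretch between COL4A1 and COL4A2 held 1 GC box, and that before COL4A5 held 1 SMAD element and no GC box. Among 34943 RefSeq windows of the 250 bases before a start, longer than the 126 bases between COL4A1 and COL4A2, 9.95% held an NF-kB match, 6.56% a STAT match, 6.59% an AP-1 match, 42.5% a GC box, 38.0% a SMAD element and 10.8% a TATA box match. All 9 listed members had such a window, COL18A1 included. Of these, 7 had a GC box in at least 1 window, 3 a SMAD element, 3 a TATA box match and 1, COL7A1, an NF-kB or STAT match. None had an AP-1 match. These are matches of letters in the windows, not measurements of binding.

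Of the 8 collagens, 2 rose with M5, 5 fell and 1 did not pass the test. COL17A1 and COL12A1 rose, COL7A1 and all 4 type IV chains fell, and COL5A1 did not pass. The test was edgeR's quasi-likelihood test on genes with a mean of at least 10 counts, with TMM scaling (a correction for library make-up) and an adjusted p under 0.05 over 14190 genes. All 8 members with a row passed this filter. Changes were common among all genes: 48.5% were called, 25.8% higher and 22.7% lower in M5. The 7 of 8 members called are to be read against that share. The members' median log2 fold change was -0.31, against -0.01 for all genes tested. Scaling by library totals called 54.1% of all genes, 17.7% higher and 36.4% lower, with their median at -0.19. TPM scaling called 54.9%, 16.4% higher and 38.5% lower, with their median at -0.22. Under both, again 2 collagens rose and 5 fell, and the collagens' median was -0.48 with totals and -0.51 with TPM scaling. The 2 groups did not overlap in CPM (counts scaled to the TMM-adjusted library size) for 7 of the 8, against 73.3% of all genes tested. In these bulk samples, fewer cells expressing a gene and less RNA per cell cannot be told apart.

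**Figure D1:**
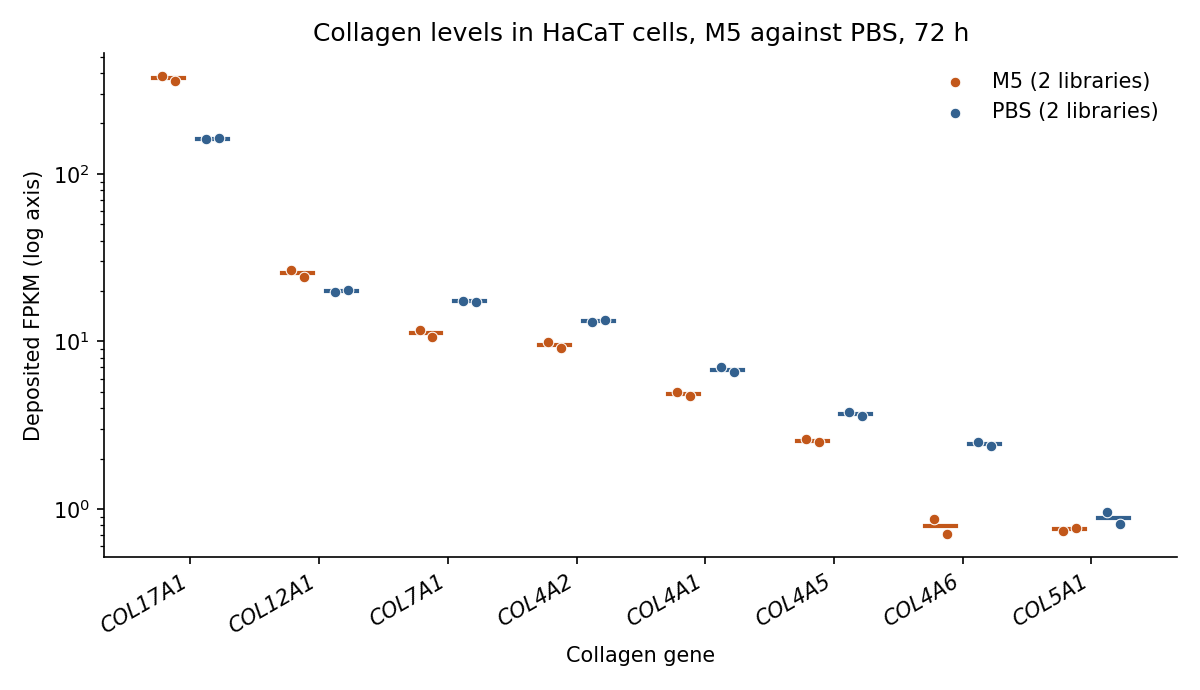
Deposited FPKM (log axis) of the 8 collagens with a row, in the 2 M5 libraries (orange, left of each pair) and the 2 PBS libraries (blue), with bars at the group means. COL17A1 stands above the others at 384 and 358 FPKM in M5, against 162 and 163 FPKM in PBS, and the 2 groups lie closest for COL5A1.

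COL17A1 (ENSG00000065618, GRCh38 chromosome 10, 104031286 to 104085957, minus strand) encodes the transmembrane collagen of hemidesmosomes, also known as BP180, the autoantigen of bullous pemphigoid. It had 50929 and 49372 counts in M5 and 18000 and 18332 counts in PBS. In TMM-scaled CPM this was 2860 and 2650 in M5, against 1070 and 1080 in PBS, so both M5 libraries lay well above both PBS libraries. The group means were 2750 ± 149 CPM in M5 and 1070 ± 7.98 CPM in PBS (SD, n = 2 each). The rise was 2.57-fold, a log2 fold change of 1.36 (SE 0.05, 95% interval 1.25 to 1.47, edgeR adjusted p = 2.52e-12). Of the genes tested, 738 (5.20%) rose as much or more. By mean FPKM, COL17A1 ranked 63 among all genes in M5 and 160 in PBS.

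COL12A1 (ENSG00000111799, chromosome 6, 75084326 to 75206051, minus strand), the fibril-associated collagen, was the other riser. It had 538 and 483 CPM in M5, against 349 and 363 CPM in PBS, with no overlap. The rise was 1.43-fold, a log2 fold change of 0.52 (SE 0.06, 95% interval 0.39 to 0.65, edgeR adjusted p = 2.08e-06). It was smaller than that of COL17A1, and the 95% intervals of the pair do not meet.

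COL7A1 (ENSG00000114270, chromosome 3, 48564073 to 48595267, minus strand), the anchoring fibril collagen, fell. It had 138 and 126 CPM in M5 and 182 CPM in each PBS library. The means were 132 ± 8.44 CPM in M5 and 182 ± 0.538 CPM in PBS (SD, n = 2 each). M5 was 1.37-fold lower, with a log2 fold change of -0.46 (SE 0.06, 95% interval -0.59 to -0.33, edgeR adjusted p = 9.13e-06). COL7A1 and COL17A1, which both serve the attachment of the epidermis to the dermis, thus moved in opposite directions in the same libraries.

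Among the type IV chains, COL4A6 fell most. COL4A6 (ENSG00000197565, chromosome X, 108155607 to 108439497, minus strand) had 154 and 130 counts in M5 and 371 and 354 counts in PBS. This was 8.64 and 6.97 CPM in M5, against 22 and 20.8 CPM in PBS, so both M5 libraries lay below both PBS libraries. M5 was 2.74-fold lower, a log2 fold change of -1.46 (SE 0.15, 95% interval -1.76 to -1.15, edgeR adjusted p = 4.18e-07). Of the genes tested, 402 (2.83%) fell as much or more.

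Its neighbour COL4A5 (ENSG00000188153, chromosome X, 108439844 to 108697545, plus strand) fell less. It had 33.1 and 31.4 CPM in M5, against 42.5 and 40.1 CPM in PBS. M5 was 1.28-fold lower, a log2 fold change of -0.36 (SE 0.09, 95% interval -0.54 to -0.17, edgeR adjusted p = 0.00304). COL4A5 and COL4A6 were both below PBS in both M5 libraries, and their 95% intervals do not meet.

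The other pair, on chromosome 13, fell by like amounts. COL4A1 (ENSG00000187498, 110148963 to 110307233, minus strand) had 79.2 and 74.8 CPM in M5 and 99.1 and 92.2 CPM in PBS, a difference of -0.31 on the log2 scale (SE 0.06; adjusted p = 0.000806 by edgeR). COL4A2 (ENSG00000134871, 110305812 to 110513209, plus strand) had 210 and 192 CPM in M5 and 244 and 251 CPM in PBS, a difference of -0.30 on the log2 scale (SE 0.06; adjusted p = 0.000493 by edgeR). M5 was 1.24-fold lower for COL4A1 and 1.23-fold lower for COL4A2. Their antisense transcripts COL4A2-AS1 and COL4A2-AS2, which share 81 and 14 bp of exon with COL4A2, had at most 5 counts in any library. The strand setting of the counts is not given, so their reads and those of COL4A2 may not have been told apart where they overlap. COL4A3 and COL4A4, the type IV chains of kidney and lung membranes, had at most 14 counts in any library and were not tested.

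**Figure D2:**
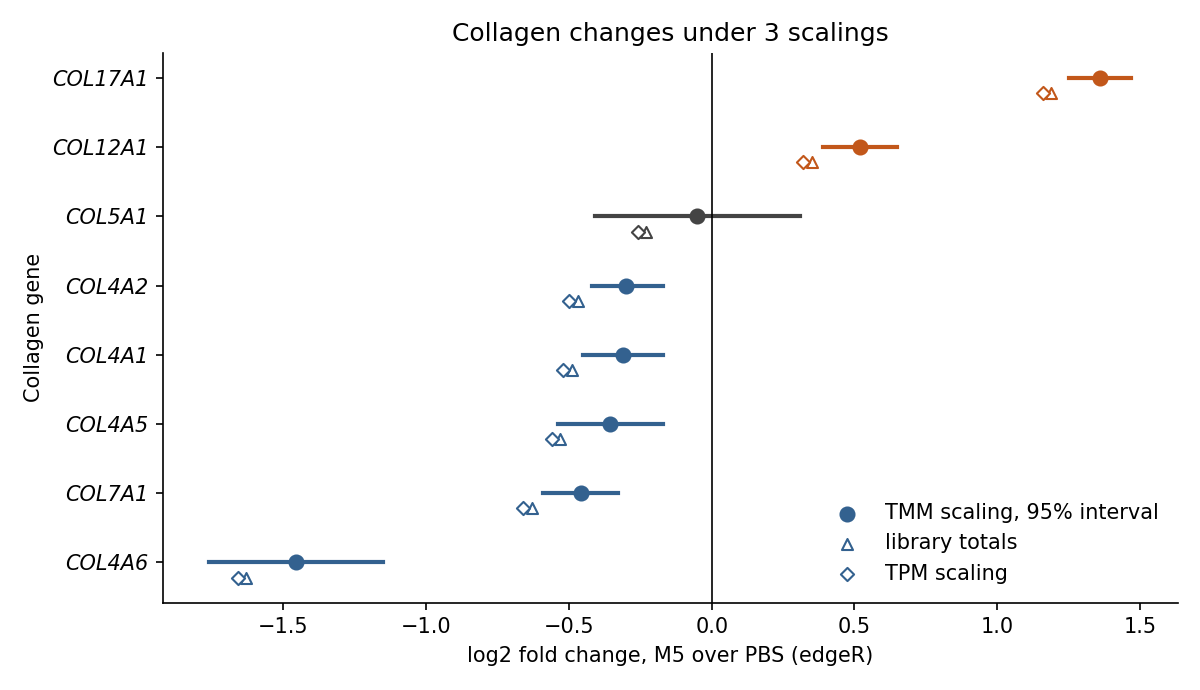
Log2 fold change of each collagen, M5 over PBS, from edgeR. Filled points with bars are TMM scaling with its 95% interval (orange higher, blue lower, grey not called), triangles are scaling by library totals and diamonds TPM scaling. COL17A1 and COL12A1 lie above 0 and 5 collagens below 0 under all 3 scalings, and the interval of COL5A1 spans 0.

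Ratios within a library, which need no scaling between libraries, set the pairs apart. The ratio of COL4A1 to COL4A2 in FPKM was 0.500 and 0.515 in M5, against 0.537 and 0.486 in PBS, so the M5 values lay inside the PBS range. The log2 ratio differed by -0.01 between M5 and PBS. The ratio of COL4A5 to COL4A6 was 3.00 and 3.52 in M5, against 1.51 in each PBS library. Both M5 values lay above both PBS values, and the log2 ratio was 1.11 higher in M5. An exact permutation test, two-sided, gave p = 0.333 for COL4A5 to COL4A6, and p = 1 for COL4A1 to COL4A2. The smallest p that this test can give with 2 against 2 libraries is 0.333, so it can make no call at 0.05 and its p says nothing for or against a change in either ratio.

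**Figure D3:**
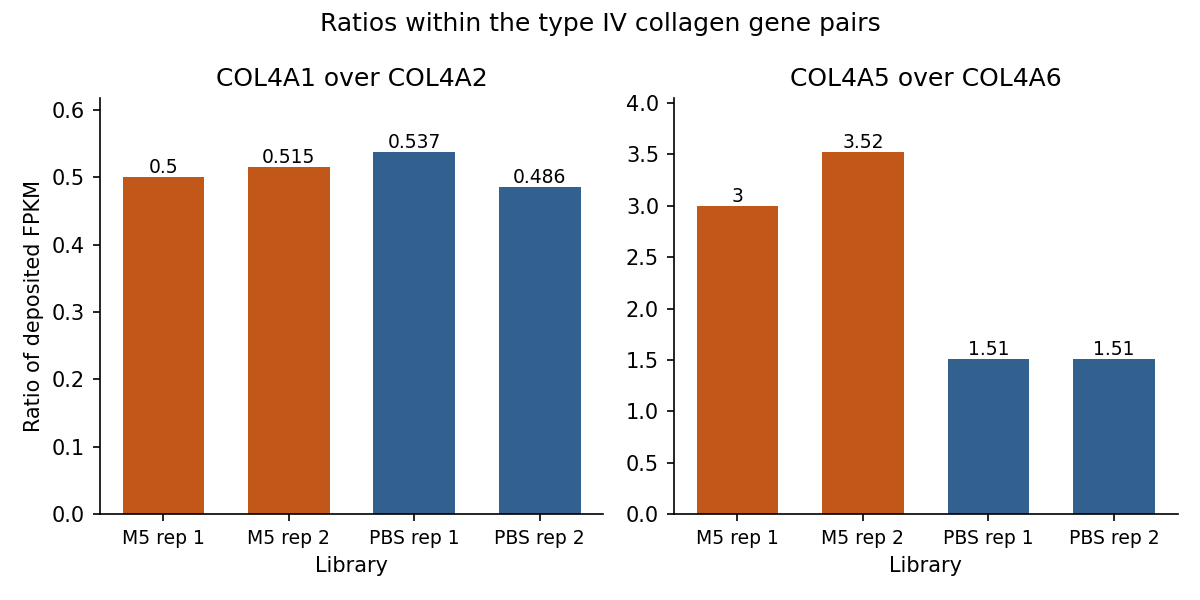
Ratio of deposited FPKM within the head-to-head type IV pairs, 1 bar per library, M5 in orange and PBS in blue. COL4A1 over COL4A2 stays between 0.486 and 0.537 in all 4 libraries, while COL4A5 over COL4A6 is 3.00 and 3.52 in M5 and 1.51 in both PBS libraries.

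COL5A1 (ENSG00000130635, chromosome 9, 134641774 to 134844843, plus strand), a chain of fibrillar type V collagen, was low in both groups. It had 8.75 and 9.17 CPM in M5, against 10.0 and 8.58 CPM in PBS, and the groups overlapped. The log2 fold change was -0.05 (SE 0.17, edgeR adjusted p = 0.823), with a 95% interval from -0.41 to 0.31, so a change within that interval is not excluded.

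Per length, COL17A1 was the most abundant member in both groups, at 371 ± 18.4 FPKM in M5 and 163 ± 0.709 FPKM in PBS (SD, n = 2 each). It stood 14.6 times above the next member in M5 and 8.13 times in PBS. In M5 the others followed as COL12A1 (25.5 FPKM), COL7A1 (11.2), COL4A2 (9.58), COL4A1 (4.86), COL4A5 (2.56), COL4A6 (0.791) and COL5A1 (0.756). The library values of the last 2 overlapped in M5, and no other neighbours overlapped in either group. In PBS the order was the same, with COL12A1 at 20, COL7A1 at 17.4, COL4A2 at 13.3, COL4A1 at 6.80, COL4A5 at 3.70, COL4A6 at 2.45 and COL5A1 at 0.885 FPKM. The order depends on the gene length used. The deposited FPKM of COL4A2 rests on 19737 bp, whereas its longest coding transcript in GENCODE 29 has 6494 bp. That of COL12A1 rests on 18860 bp, against 12481 bp for all its exons and 11723 bp for its longest coding transcript in GENCODE 29, so either of these lengths gives it a higher level. With longest coding transcripts, COL17A1 was at 455 in M5 and 200 in PBS. On that scale COL4A2 was at 29.1 in M5, between COL12A1 (41.0) and COL7A1 (13.4). In PBS it was at 40.4, above COL12A1 (32.3) and COL7A1 (20.8), so the distance from COL17A1 to the next member was smaller in both groups than by deposited FPKM. Differences between groups for 1 gene do not depend on its length.

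The make-up of the collagen message shifted towards COL17A1. All 32 collagen genes with a row together took 0.383% and 0.354% of the counts in M5, against 0.227% and 0.228% in PBS. COL17A1 alone was 70.1% and 70.6% of these collagen counts in M5, against 50.1% and 50.0% in PBS. Without COL17A1, the collagens took 0.115% and 0.104% of the library in M5, against 0.113% and 0.114% in PBS, so the groups overlapped. The type IV chains together took 0.0311% and 0.0290% of the library in M5, against 0.0434% and 0.0428% in PBS. COL7A1 was 3.39% and 3.37% of the collagen counts in M5, against 8.56% and 8.43% in PBS. These are shares of counts, not scaled by TMM, and a share falls when another gene takes more.

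**Figure D4:**
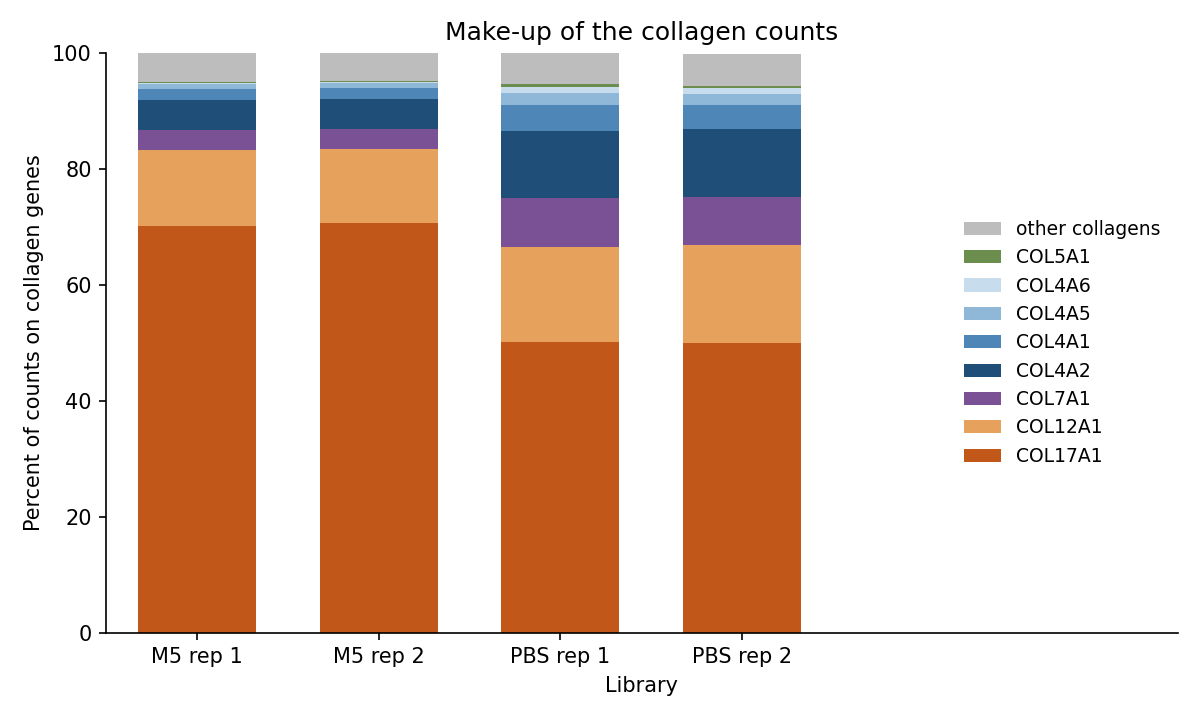
Share of all collagen counts taken by each gene, 1 bar per library, M5 left and PBS right. COL17A1 fills 70.1% and 70.6% of the bars in M5, against 50.1% and 50.0% in PBS, and the blue bands of the type IV chains and the purple band of COL7A1 are narrower in M5.

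Of the 24 other collagens with a row, 9 passed the filter: 3 rose, 3 fell and 3 did not pass the test. COL27A1, a fibrillar collagen and the most abundant of them, had 2609 and 2437 counts in M5 and 950 and 966 in PBS, a difference of 1.29 on the log2 scale (SE 0.07; adjusted p = 1.47e-10 by edgeR). COL8A1, a short-chain network collagen, had 98 and 68 counts in M5 and 5 and 11 in PBS, a difference of 3.26 on the log2 scale (SE 0.40; adjusted p = 4.75e-06 by edgeR) that was 2.81 without PBS replicate 1 and 3.91 without PBS replicate 2. Its partner chain COL8A2 had 20 and 28 counts in M5 and 10 and 7 in PBS (log2 fold change 1.38, edgeR adjusted p = 0.0309). That call was lost with DESeq2 (adjusted p = 0.136), with library totals (0.0522) or TPM scaling (0.0568), with limma on log2(FPKM + 1) (0.064), without M5 replicate 2 (0.139) or PBS replicate 2 (0.144), and at an adjusted p of 0.01, over alternatives from 0.0282 to 0.144. COL13A1, a transmembrane collagen like COL17A1, fell, with 62 and 30 counts in M5 and 112 and 102 in PBS (log2 fold change -1.32, edgeR adjusted p = 0.00155). Its value was -1.97 without M5 replicate 1 and -0.86 without M5 replicate 2. COL5A3, a partner chain of COL5A1, fell to 60 and 59 counts in M5, against 107 and 132 in PBS (log2 fold change -1.11, edgeR adjusted p = 0.000579). COL16A1, a fibril-associated collagen, fell by 0.39 on the log2 scale (edgeR adjusted p = 0.0109), a call lost with DESeq2 (adjusted p = 0.0502), without M5 replicate 2 (adjusted p = 0.0578) and at an adjusted p of 0.01, over alternatives from 0.000629 to 0.0578.

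Genes that make collagen rose more often than they fell. Of 17 tested genes of collagen folding, modification and export, 12 rose and 2 fell, with a median log2 fold change of 0.35, against -0.01 for all genes tested. P4HA2 and P4HA1, catalytic subunits of the prolyl hydroxylase that lets collagen fold, rose by 1.22 (SE 0.07) and 0.87 (SE 0.08). PLOD2, a lysyl hydroxylase that prepares cross-links, rose by 1.05 (SE 0.08). The count depends on scaling. With library totals 9 rose and 4 fell, and with TPM scaling 7 rose and 5 fell, against the share of higher and lower calls given above for each scaling.

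Among genes of collagen processing and cross-linking, 10 were tested, of which 4 rose and 2 fell (median -0.09). TGM2, a transglutaminase, rose by 2.14 (SE 0.17). PXDN, the peroxidase that cross-links type IV collagen, rose by 1.37 (SE 0.16), with 365 and 305 counts in M5 and 121 and 120 in PBS, while the type IV chains themselves fell. LOX, a lysyl oxidase, had a log2 fold change of 1.32 (edgeR adjusted p = 0.00827) that was 0.77 without PBS replicate 1 (adjusted p = 0.0834) and 2.22 without PBS replicate 2. Its call was also lost with limma on log2(FPKM + 0.1) (adjusted p = 0.0607), over alternatives from 1.23e-05 to 0.0834.

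Among basement membrane genes other than collagens, 16 were tested, of which 6 rose and 5 fell (median 0.01). With library totals or TPM scaling 5 rose and 7 fell (median -0.17 with totals, -0.20 with TPM scaling). The falls were led by SPARC, a collagen-binding matrix protein, at -2.45 (SE 0.19), and NID2, which links laminin to type IV collagen, at -1.76 (SE 0.16). The rises included the laminin chains LAMA3, by 1.74 (SE 0.05), and LAMB3, by 1.36 (SE 0.06), and TINAGL1, by 0.81 (SE 0.06). All 9 hemidesmosome and basal attachment genes were tested, and 7 rose and 1 fell (median 0.51). FERMT1, the kindlin of epithelia, rose by 1.71 (SE 0.05) and ITGA6, the integrin chain beside COL17A1, by 1.20 (SE 0.05). KRT5, a basal keratin, fell by 0.94 (SE 0.05), whereas KRT14, the other keratin of the list, rose by 0.30 (SE 0.06). That rise of KRT14 was not called with library totals (edgeR adjusted p = 0.0667) or TPM scaling (edgeR adjusted p = 0.183). With library totals 6 of the 9 rose and 2 fell, and with TPM scaling 5 rose and 2 fell.

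Among collagen receptors, 7 were tested, of which 3 rose and 0 fell (median 0.50). ITGA2 rose by 1.69 (SE 0.06) and its partner ITGB1 by 0.97 (SE 0.05). ITGA1 rose by 0.50 (SE 0.12, edgeR adjusted p = 0.00174), a call lost with limma on log2(FPKM + 1) (adjusted p = 0.142) and log2(FPKM + 0.1) (adjusted p = 0.186), over alternatives from 0.000253 to 0.186. With library totals or TPM scaling 3 receptors rose and 1 fell. Among enzymes that cut or shed collagens, 15 were tested, of which 10 rose and 2 fell (median 1.76). MMP10, a stromelysin, rose by 6.57 on the log2 scale (SE 0.15) and the collagenase MMP1 by 5.48 (SE 0.09). MMP3, also a stromelysin, rose by 5.13 (SE 0.22), or by 5.72 without PBS replicate 1. The 2 that fell were MMP2, by 1.85 (SE 0.07), and MMP13, by 1.17 (SE 0.26). ADAM9, a sheddase of COL17A1, rose by 0.76, whereas ADAM10 (-0.09) and ADAM17 (0.16) did not pass the test under TMM scaling. ADAM10 was called lower with library totals (-0.27, edgeR adjusted p = 0.000607) and with TPM scaling (-0.30, edgeR adjusted p = 0.000334). With either of these scalings 10 of the enzymes rose and 3 fell. Each list's call shares under TMM scaling are to be read against the 25.8% higher and 22.7% lower among all genes tested. For counts with library totals the shares over all genes were 17.7% higher and 36.4% lower. For those with TPM scaling they were 16.4% higher and 38.5% lower.

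**Figure D5:**
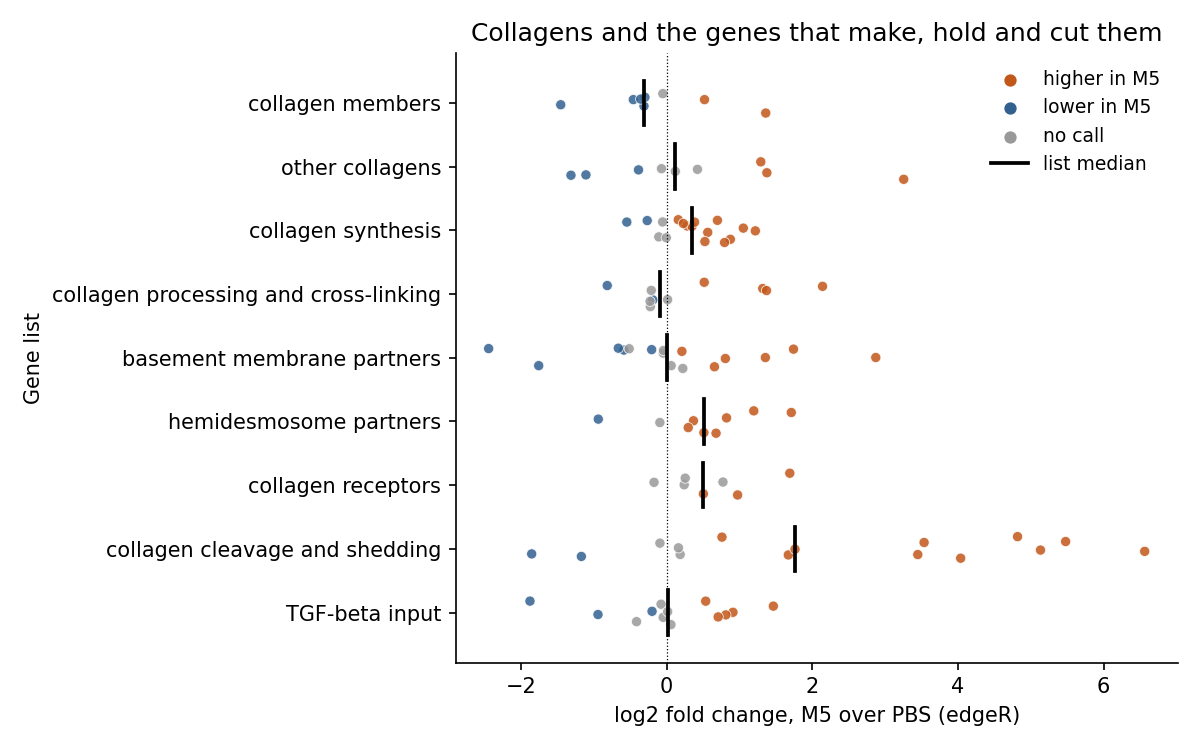
Log2 fold change, M5 over PBS, of each tested gene by list, 1 point per gene (orange higher, blue lower, grey not called; points are spread vertically for legibility), with a black bar at the list median. The collagens described here (top row) have a median of -0.31, the synthesis genes 0.35 and the cleavage and shedding genes 1.76.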

How the data were processed

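Polyadenylated RNA of 4 HaCaT libraries was sequenced. Per the file headers, the deposited values of each Ensembl gene are a count and an FPKM. Of the steps before that, the submitters' processing notes list GRCh38, HISAT2 and HTSeq 0.13.5 without roles or order. The annotation release and strand setting used are not given in those sources. Count, library total and deposited FPKM together imply gene lengths that are whole numbers to within 3.49e-10 bp.

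The members and lists were chosen with earlier results of these data known. Counts were tested with edgeR 4.0.16 in R 4.3.3 (quasi-likelihood, TMM, mean of at least 10 counts, 2 M5 against 2 PBS libraries, two-sided, Benjamini-Hochberg over all genes). The fit was also run on simulated counts with far fewer changed genes than were called here. That run cannot check the scaling where changes are this common. A count filter was used because collagen mRNAs are long. The SE is the log2 fold change over the square root of its F statistic. Alternatives used DESeq2 1.42.0, limma 3.58.1, other scalings, filters and thresholds, a replicate block, and each library left out. Gene lengths from GENCODE 29 coding transcripts were chosen after seeing the data. Positions are from GENCODE 29 (GRCh38), which holds 93.2% of the identifiers, and promoters from RefSeq. The named genes were all members, of the other collagens up to 3 largest rises and falls among changed genes and the most abundant, of each list up to 3 largest absolute changes among changed members, and the most abundant marker of each other cell type. Some genes this rule names are not reported here. COL4A3, COL4A4, the antisense transcripts, the 3 ADAM genes, MLANA and the remaining fibroblast markers were named after their values were seen. So were ERG, VWF, PECAM1, TEK, CLDN5, KRT14, LAMA3, LAMB3, TINAGL1, MMP2, MMP13, TGFB1, SMAD3 and TGFBI. Between the libraries of a group the median chi-square per gene was 1.44 in M5 and 0.976 in PBS, where sampling alone gives 0.455, so no library was taken for a second deposit of another. That does not show that they are separate cultures.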

Additional observations from a re-analysis of the deposited data

How the results depend on the processing

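The calls of the collagens held under all 16 alternatives: 2 rose and 5 fell each time, while the number of genes called among all tested ran from 5272 (adjusted p of 0.01) to 7791 (TPM scaling). Leaving out each library in turn gave between 5666 and 6695 called genes. Over the alternatives fitted to counts, the log2 fold change of COL17A1 ran from 1.16 to 1.42, of COL12A1 from 0.32 to 0.60, of COL7A1 from -0.66 to -0.39 and of COL4A6 from -1.66 to -1.31. COL5A1, not called, changed sign without PBS replicate 1, at 0.06, in a range from -0.16 to 0.06 when each library was left out (edgeR adjusted p = 0.862; over its alternatives 0.209 to 0.952), and the cause was not tested. COL5A1 did not pass the filter of a mean FPKM of at least 1. Of 610 values over 39 named genes, 595 kept their direction and side of the threshold, 14 lost the call and 1 reversed. A fit with the replicate block called 7161 genes and again 2 collagens higher and 5 lower. Deviations of libraries with the same number correlated at -0.04 over 9846 genes with a mean of at least 100 counts. No pairing by number was seen, which does not show that libraries with the same number were handled apart. With 2 libraries a group, leaving one out assumes that the lone library varies like the other group. The direction of a call near 0 depends on scaling, since totals shift the median of all genes to -0.19 and TPM scaling to -0.22.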

Other observations

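Genes of TGF-beta signalling, a pathway known to raise collagen genes in skin, were called in both directions. Of 13 tested genes, 5 rose and 3 fell, where 25.8% of all genes tested rose and 22.7% fell, with a median log2 fold change of 0.01, against -0.01 for all genes tested. The ligand gene TGFB2 had 49 and 56 counts in M5, against 179 and 180 in PBS, a difference of -1.88 on the log2 scale (SE 0.20; adjusted p = 8.98e-07 by edgeR). The coreceptor TGFBR3 had 70 and 68 counts in M5, against 119 and 128 in PBS, a difference of -0.94 on the log2 scale (SE 0.21; adjusted p = 0.00131 by edgeR). The rises included TGFB1, by 0.91 (SE 0.07), SMAD3, by 0.81 (SE 0.06), and TGFBI, by 0.71 (SE 0.05). With library totals or TPM scaling the split was 5 higher and 5 lower (median -0.16 for totals and -0.19 for TPM scaling). Of all genes tested, 17.7% rose and 36.4% fell with totals, and 16.4% rose and 38.5% fell with TPM scaling. The falls in the list are near these shares, and the rises are above them. Neither the list nor any of its genes was tested as a cause of the collagen values.

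Of the markers of other cell types, 6 were tested, of which 3 rose and 3 (PMEL, MLANA and COL1A1) did not pass the test. Of all genes tested, 25.8% rose, and 6 markers are too few to set apart from that share. FAP, which is also known as a surface protease of activated fibroblasts, rose by 6.30 on the log2 scale (SE 0.21, edgeR adjusted p = 4.64e-13), with values of 5.81 without PBS replicate 1 and 7.05 without PBS replicate 2. CDH5, an endothelial cadherin, rose by 1.68 (SE 0.35, edgeR adjusted p = 0.000904). No other gene of the endothelial list was tested, and those with a row went both ways. ERG, like CDH5, was higher in M5, with 15 and 19 counts against 1 and 0 in PBS. VWF was lower, with 3 and 0 counts in M5 against 19 and 11 in PBS. PECAM1 had 0 in both M5 libraries against 1 in each PBS library, and TEK and CLDN5 had at most 3 counts in any library. CD14, a receptor of bacterial lipopolysaccharide, rose by 1.51 (SE 0.23, edgeR adjusted p = 4.06e-05). PMEL, a melanosome protein, had 26 counts in each M5 library, against 20 and 17 in PBS (log2 fold change 0.38, edgeR adjusted p = 0.467).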
